A study of Mus musculus with 60 samples.

Results

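Microglia carrying a history of Spp1 expression (Tdt+) were set against unlabelled microglia (Tdt-) of the injured cortex after a challenge with lipopolysaccharide (LPS), the bacterial cell wall component that activates Toll-like receptor 4. The members were chosen by their labels alone and are 8 bulk RNA libraries, 4 Tdt+ and 4 Tdt-, of the 60 samples in the series, 52 of which are bulk RNA. Every group used here came from Spp1-CreER:R26-Tdtomato mice with a neonatal stroke, sampled 28 days after injury at postnatal day 34. The Tdt+ and Tdt- groups of the injured cortex had received LPS, as had 4 libraries of unlabelled microglia from the contralateral cortex. At the same age without LPS, 4 Tdt+ and 4 Tdt- libraries of the injured cortex were also used. Each library was made from 2000 sorted microglia with a full-length protocol modified from SMART-Seq2. In these mice the Spp1 promoter drives a tamoxifen-dependent Cre, so that Tdtomato marks cells that used the promoter while Cre was active and does not report Spp1 at the time of sampling. The dose and timing of LPS and of Cre induction, and whether a library holds 1 animal or a pool, are not given in the sources used here. The p-values therefore measure the spread between these samples.

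Microglia are the resident macrophages of the brain. Spp1 encodes osteopontin, a secreted phosphoprotein made by subsets of microglia in development, injury and disease. LPS acts through Toll-like receptor 4 to induce cytokines, chemokines, acute-phase proteins and, by way of type I interferon, interferon-stimulated genes. At the same time it lowers many genes of the homeostatic microglial state, such as the purine receptor gene P2ry12.

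The sorted cells carried the microglial markers they were labelled with. The 10 microglia markers summed to 17425 to 25997 TPM, a unit of transcript abundance scaled to the same total in each library, in Tdt+ libraries and 21926 to 27928 TPM in Tdt- libraries, and each of the 10 passed the filter on low values. Several defining markers of lymphocytes and granulocytes were absent. Cd3e and Trac of T cells, Ly6g, S100a9 and Mpo of neutrophils, and Cd79a and Ms4a1 of B cells were at 0 TPM in all 8 libraries. The 8 B cell markers together, mostly Ighm and Cd79b, reached 127 to 268 TPM in Tdt+ libraries and 88.9 to 265 TPM in Tdt- libraries. For the 12 neutrophil markers, mostly Csf3r, the sums were 152 to 243 TPM in Tdt+ libraries and 197 to 231 TPM in Tdt- libraries. Some other neutrophil markers were not at 0. In Tdt- library 4, S100a8 reached 7.04 TPM and Cxcr2 11.2 TPM, and Mmp8 was at 5.16 and 5.22 TPM in Tdt+ libraries 1 and 4. The 12 markers of border-associated macrophages, mostly Stab1, summed to 415 to 717 TPM in Tdt+ libraries and 488 to 656 TPM in Tdt- libraries, and Lyve1 was at 0 in all 8. Of the 8 tested, 3 were higher in Tdt+ in all 4 pairs of the same number, against 7.61% of all tested genes. In all 4 pairs 1 was lower, against 10.6% of all, and the median log2 fold was 0.43. The lower one was Mrc1, at 9.11, 12.4, 10.3 and 1.18 TPM in Tdt+ libraries, against 11.5, 13.1, 13.3 and 4.32 TPM in Tdt- libraries. Siglec1 averaged 34.8 ± 9.57 TPM in Tdt+ libraries and 21.1 ± 1.70 TPM in Tdt- libraries (SD, n = 4 each). It did not pass in limma (log2 fold 0.65, adjusted p = 0.127). The 12 monocyte markers, mostly Fn1 and Plac8, summed to 79.9 to 237 TPM in Tdt+ libraries and 78.5 to 158 TPM in Tdt- libraries, with Chil3 and Cd177 at 0 in all 8. Between 12400 and 12826 genes reached 1 TPM in Tdt+ libraries, against 12553 to 12870 in Tdt- libraries. TPM keeps no record of the number of reads, so the depth is unknown. The libraries numbered 4 stood apart, with 6.20% (Tdt+) and 6.88% (Tdt-) of TPM from mitochondrially encoded genes, where the other members lay between 3.41% and 4.01%. Ribosomal protein genes took 6.94 to 8.23% of TPM in Tdt+ libraries and 8.13 to 9.13% in Tdt- libraries; the part of these shares and marker levels in the results below was not tested.

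Spp1, the gene whose promoter drives the label, did not pass the test between the labelled and unlabelled cells. It stood at 145, 192, 118 and 665 TPM in Tdt+ libraries 1 to 4, against 104, 145, 98.3 and 373 TPM in Tdt- libraries 1 to 4. The Tdt+ library was the higher one in 4 of 4 pairs of the same number, while the groups overlapped and both libraries numbered 4 held the highest value of their group. The log2 fold of Tdt+ over Tdt- was 0.50 ± 0.13 (SE), with an adjusted p of 0.148. In the contralateral cortex Spp1 averaged 77.5 ± 53.6 TPM (SD, n = 4).

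After LPS, Tdt+ microglia differed from Tdt- microglia in 62 of 13397 genes tested (0.463% of them), 40 higher (0.299%) and 22 lower (0.164%). Among the higher genes were Adgre1, Lyz2, Cd44, the chemokine genes Ccl5 and Cxcl13, the interleukin-1 receptor antagonist gene Il1rn, and Lcn2, Cp and Cybb. Among the lower genes were Ltc4s, Alox5ap, Trem2, Gas6, Fcgr3 and Crybb1. The test was limma on log2(TPM + 1) with the replicate number as a block, fitted on the 12 LPS libraries, and a gene passed at an adjusted p under 0.05; folds are on that scale and understate changes of low genes. In bulk samples fewer cells of a type and less RNA per cell cannot be told apart. Fitted log2 folds ran from 0.50 to 3.88 among the higher genes, with a median of 1.08, and from -2.18 to -0.36 among the lower genes, with a median of -0.64. The median over all genes tested was -0.03. Each of the 62 moved in 1 direction in all 4 pairs, which 7.61% of all tested genes did upward and 10.6% downward. For 25 of the 40 higher genes every Tdt+ library lay above every Tdt- library, as it did for 1.34% of all tested genes. For 8 of the 22 lower genes every Tdt+ library lay below, as for 1.81% of all.

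The number of calls depended on the pairing and on single libraries. Without the replicate block 0 genes passed, and 618 had an unadjusted p under 0.05, against 1469 (11%) with the block, 600 higher (4.48%) and 869 lower (6.49%). Leaving out Tdt+ library 1, 2, 3 or 4 left 26, 39, 13 or 14 calls, and leaving out Tdt- library 1, 2, 3 or 4 left 26, 9, 13 or 17. Without number 1, 2, 3 or 4 in every group, 18, 10, 0 or 9 passed. With median-ratio scaling 34 genes were higher and 8 lower. Over up to 21 such alternatives, 12 of the 62 genes kept their call in most of them and 19 in 5 or fewer, among them Trem2, Lox, Irak3 and Lsp1 (5 each), Fth1 (4), Ifit3 and Cfp (3 each) and H2-DMa (2). Calls were kept in 18 of 21 for Adgre1, 17 for Cd44, Lyz2 and Il1rn, and 16 for Ccl5. Fewer were kept for Ltc4s (9), Lcn2, Cybb and Gas6 (8 each), Cxcl13 (7), and Cp, Alox5ap, Fcgr3 and Crybb1 (6 each). On the 8 injured-cortex libraries alone 13 of the 62 did not pass.

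**Figure D1:**
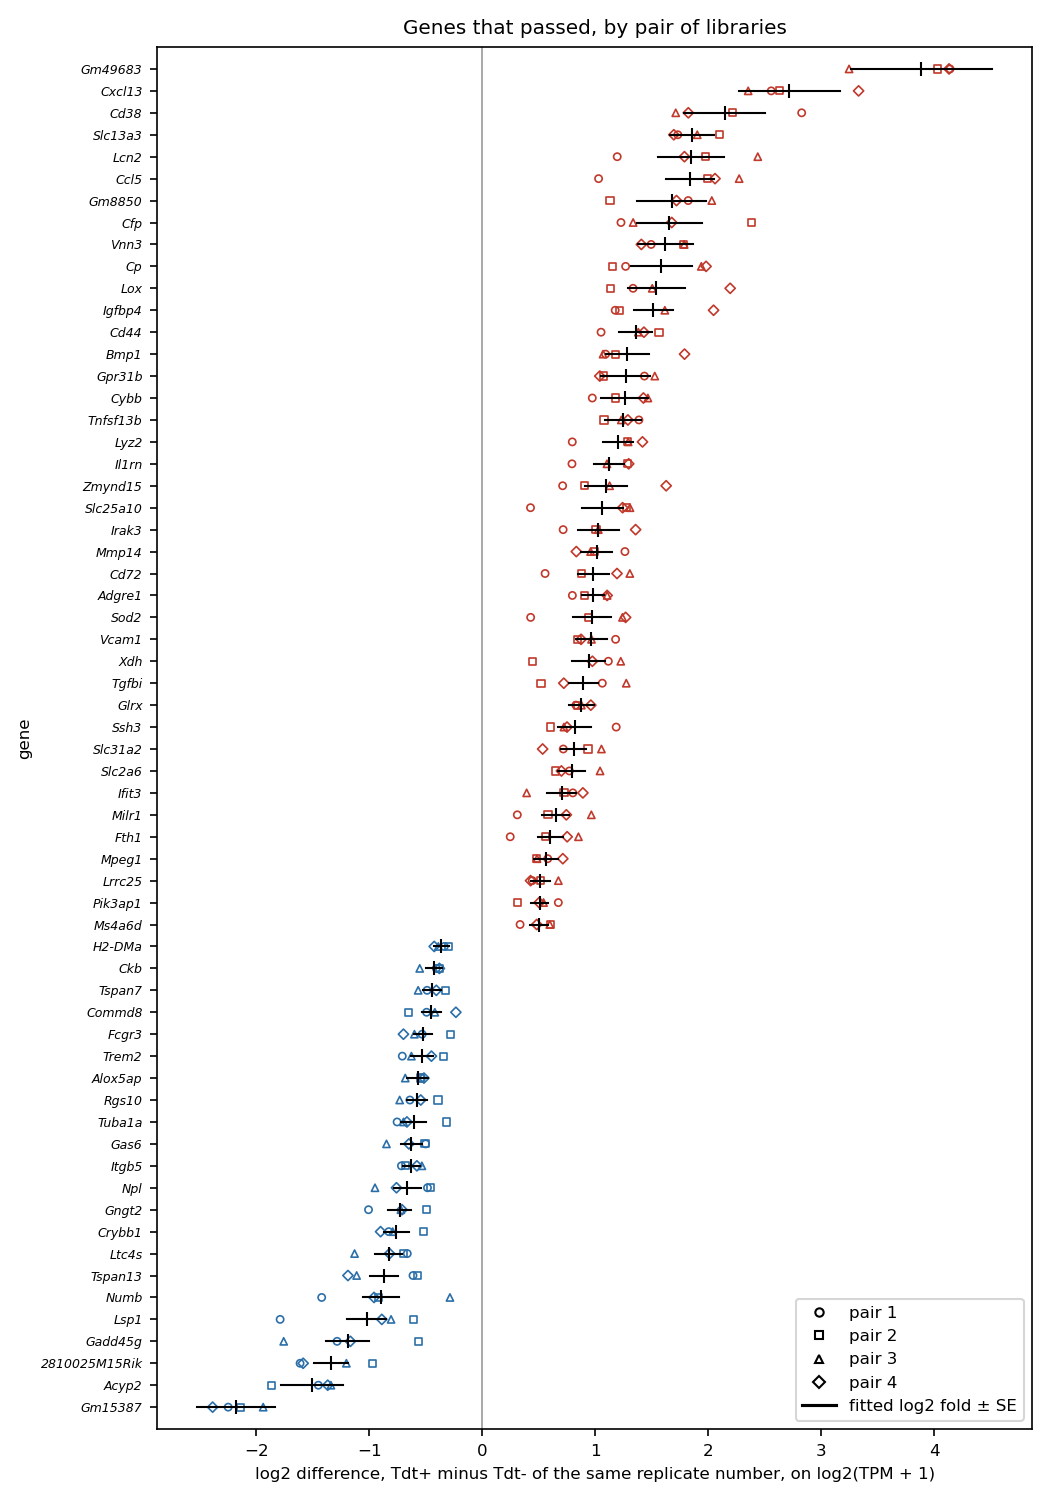
Log2 difference of Tdt+ minus Tdt- on log2(TPM + 1) for each of the 62 genes that passed, ordered by fold; open symbols are the 4 pairs of libraries with the same number, black marks the fitted log2 fold with its SE. All 4 symbols lie right of 0 for the 40 higher genes and left of 0 for the 22 lower genes, from Gm49683 at 3.88 to Gm15387 at -2.18.

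Adgre1, Slc13a3, Cd44, Lyz2, Ccl5 and Igfbp4 were higher in Tdt+ cells with an adjusted p of 0.00549 each. Adgre1 encodes F4/80, the adhesion receptor long used to identify mouse macrophages (chromosome 17, 57358581 to 57483529, GRCm38). It stood at 2124, 1582, 2021 and 1029 TPM in Tdt+ libraries, against 1222, 846, 939 and 478 TPM in Tdt- libraries. Within every pair the Tdt+ library was higher, although Tdt+ library 4 lay below Tdt- library 1. The log2 fold was 0.98 ± 0.10 (SE; adjusted p = 0.00549). Contralateral libraries were at 715, 475, 445 and 240 TPM.

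Lyz2, which encodes the bactericidal enzyme lysozyme, held 2035, 1334, 1286 and 1287 TPM in Tdt+ libraries, against 1172, 546, 525 and 481 TPM in Tdt- libraries. The groups did not overlap, although library 1 was the highest of each, and the log2 fold was 1.20 ± 0.13 (adjusted p = 0.00549). Cd44, the hyaluronan receptor, was at 51.7, 39.1, 40.3 and 76.5 TPM in Tdt+ libraries, against 24.4, 12.6, 14.9 and 27.8 TPM in Tdt- libraries. Here too the groups did not overlap, and the log2 fold was 1.36 ± 0.15 (adjusted p = 0.00549). Cd72, an inhibitory lectin-like receptor best known from B cells, was at 988, 604, 843 and 641 TPM in Tdt+ libraries, against 672, 329, 340 and 280 TPM in Tdt- libraries. Its log2 fold was 0.98 ± 0.14 (adjusted p = 0.0178), and the groups overlapped only through Tdt- library 1. Vcam1, an adhesion molecule bound by integrins on leukocytes, averaged 121 ± 40.9 TPM in Tdt+ libraries and 60.6 ± 18.7 TPM in Tdt- libraries (SD, n = 4 each; log2 fold 0.97, adjusted p = 0.0178). Cd38, an enzyme that consumes NAD, averaged 31.5 ± 19.5 TPM in Tdt+ libraries and 6.28 ± 4.97 TPM in Tdt- libraries (log2 fold 2.14, adjusted p = 0.0325).

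Carriers of dicarboxylates at the plasma and at the mitochondrial membrane, Slc13a3 and Slc25a10, were higher in Tdt+ cells. Slc13a3, the sodium-coupled dicarboxylate carrier of the cell surface, held 827, 514, 440 and 317 TPM in Tdt+ libraries, against 249, 119, 117 and 97.3 TPM in Tdt- libraries. Its lowest Tdt+ value exceeded its highest Tdt- value, and the log2 fold was 1.86 ± 0.20 (adjusted p = 0.00549). Slc25a10, the mitochondrial dicarboxylate carrier, was at 75.6, 78.9, 76.8 and 72.9 TPM in Tdt+ libraries, against 56.0, 32.0, 30.5 and 30.3 TPM in Tdt- libraries. These groups did not overlap, the log2 fold being 1.06 ± 0.18 (adjusted p = 0.0325). Acod1 makes itaconate, a dicarboxylate produced by activated macrophages. It was at 279, 289, 191 and 242 TPM in Tdt+ libraries, against 132, 91.0, 50.0 and 75.9 TPM in Tdt- libraries. The groups did not overlap, but the adjusted p was 0.351 for a log2 fold of 1.58 ± 0.59; in a fit on the 8 injured-cortex libraries alone it was 0.00353 for Acod1.

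Ccl5 and Cxcl13, chemokines that attract lymphocytes, were higher in Tdt+ cells. Ccl5, which recruits T cells and monocytes, was at 2421, 860, 1546 and 2939 TPM in Tdt+ libraries, against 1186, 215, 319 and 704 TPM in Tdt- libraries. The Tdt+ library led in each pair, the groups overlapped through Tdt- library 1, and the log2 fold was 1.84 ± 0.21 (adjusted p = 0.00549). Contralateral libraries held 30.1 to 65.4 TPM. Cxcl13, the attractant of B cells, was at 196, 40.8, 193 and 288 TPM in Tdt+ libraries, against 32.6, 5.75, 36.9 and 27.8 TPM in Tdt- libraries. No Tdt+ library fell among the Tdt- libraries, and the log2 fold was 2.72 ± 0.45 (adjusted p = 0.0302). Of 18 tested chemokine genes these 2 were higher, against 0.299% of all tested genes, 0 were lower and 16 did not pass. The median log2 fold was 0.47, and 10 of the 18 were higher in all 4 pairs, against 7.61% of all tested genes. Among those that did not pass, Ccl3, an attractant of monocytes, averaged 1911 ± 548 TPM in Tdt+ libraries and 1029 ± 453 TPM in Tdt- libraries (log2 fold 0.95, adjusted p = 0.578, or 0.016 in the fit on the 8 injured-cortex libraries alone).

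Il1rn and Irak3, which restrain interleukin-1 and Toll-like receptor signalling, were higher in Tdt+ cells. The inflammatory cytokine genes Il1b and Tnf did not pass, with folds too imprecise to call them unchanged. Il1rn encodes the interleukin-1 receptor antagonist. It was at 51.4, 34.9, 49.5 and 102 TPM in Tdt+ libraries, against 29.2, 13.7, 22.5 and 41.0 TPM in Tdt- libraries. Each pair showed the higher value in Tdt+, the groups overlapped, and the log2 fold was 1.12 ± 0.13 (adjusted p = 0.00582). Irak3, a kinase-like inhibitor of Toll-like receptor signalling, averaged 38.9 ± 6.12 TPM in Tdt+ libraries and 19.0 ± 5.92 TPM in Tdt- libraries, without overlap (log2 fold 1.03, adjusted p = 0.0383). Il1b, the cytokine whose receptor Il1rn blocks, was at 99.5, 315, 186 and 19.1 TPM in Tdt+ libraries, against 166, 233, 171 and 14.4 TPM in Tdt- libraries (log2 fold 0.05 ± 0.51, adjusted p = 0.983). Tnf averaged 265 ± 42.1 TPM in Tdt+ libraries and 209 ± 79.2 TPM in Tdt- libraries (log2 fold 0.41 ± 0.40, adjusted p = 0.766). Of 21 tested cytokine and receptor genes, 1 was higher (Il1rn), 0 were lower and 20 did not pass, with a median log2 fold of 0.03. The list of NF-kB subunits, targets and feedback genes had 2 of 24 higher (Irak3 and Sod2), 0 lower and 22 that did not pass, with a median of 0.14. Of all tested genes 0.299% were higher. Other genes of these lists went both ways and did not pass. Il1r2 had a log2 fold of -0.38, Socs3 of -0.09, Nfkbia of 0.08, Tnfaip3 of 0.37 and Tnip1 of 0.77.

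Tnfsf13b encodes BAFF, a survival factor for B cells. It held 103, 42.0, 58.0 and 85.4 TPM in Tdt+ libraries, against 38.6, 19.4, 24.2 and 34.4 TPM in Tdt- libraries (log2 fold 1.25 ± 0.16, adjusted p = 0.00989). Igfbp4, which binds insulin-like growth factors, was at 77.5, 73.0, 82.1 and 73.7 TPM in Tdt+ libraries, against 33.8, 30.9, 26.1 and 17.1 TPM in Tdt- libraries (log2 fold 1.51 ± 0.17, adjusted p = 0.00549). For both genes the groups did not overlap.

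**Figure D2:**
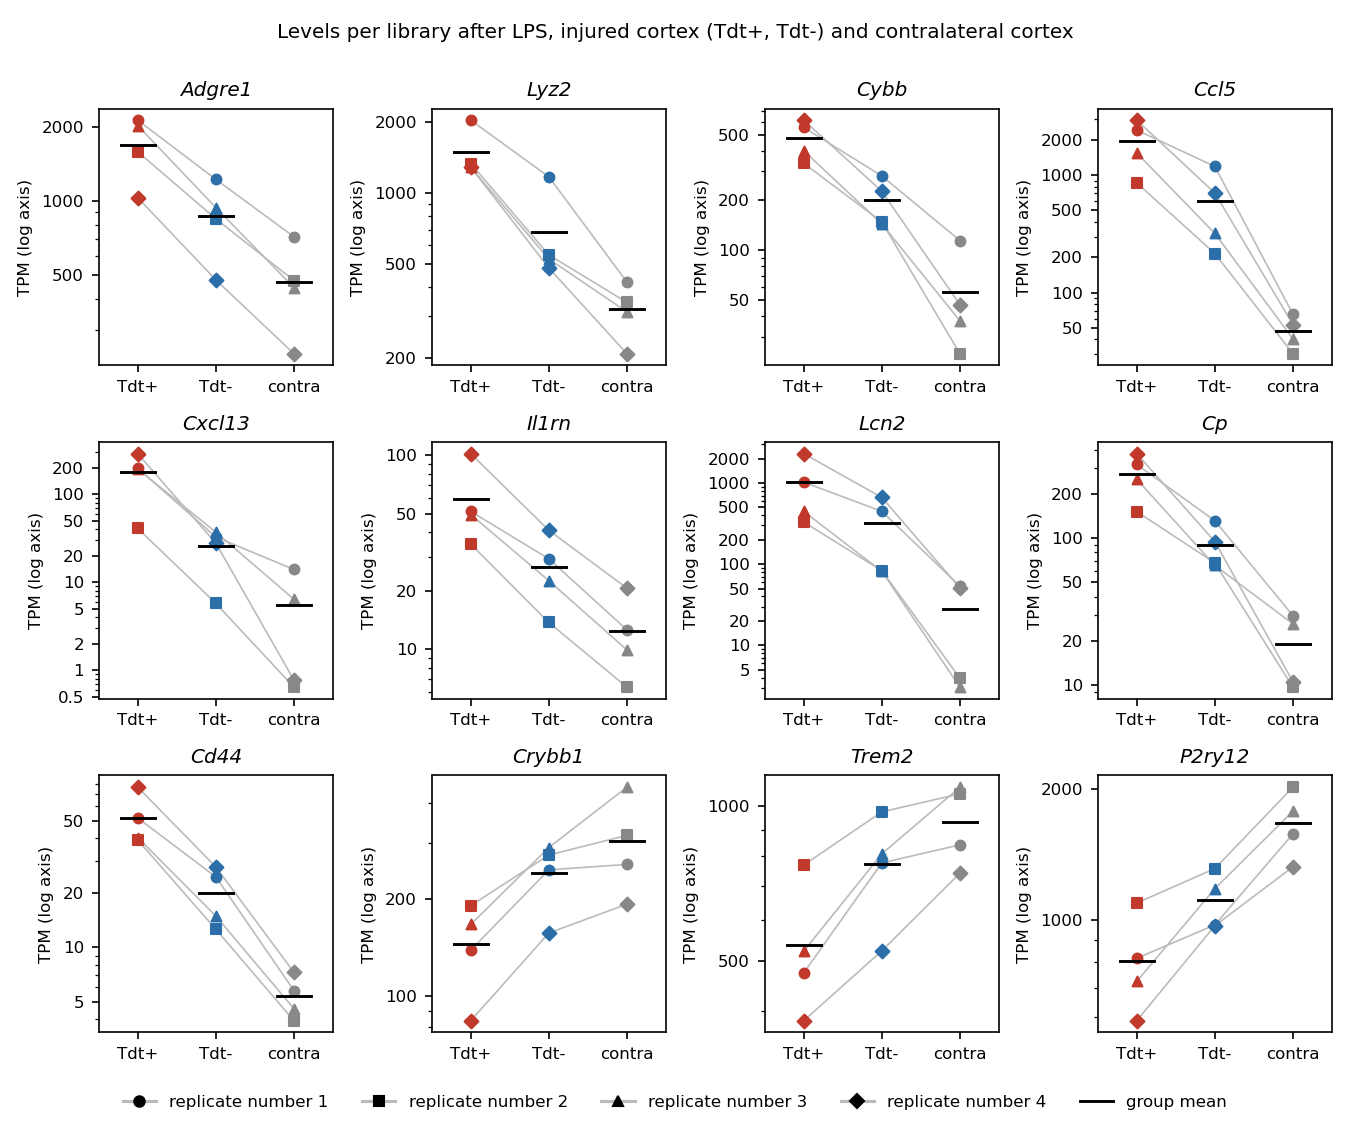
TPM on a log axis in each library after LPS for 12 genes, with Tdt+ and Tdt- of the injured cortex and the contralateral cortex from left to right; grey lines join libraries with the same number and black bars are group means. The lines fall from Tdt+ to Tdt- in all 4 pairs for the 9 genes from Adgre1 to Cd44 and climb in all 4 pairs for Crybb1, Trem2 and P2ry12, of which P2ry12 did not pass (adjusted p = 0.0528).

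Acute-phase, antimicrobial and pattern-recognition genes had the highest median of the 21 gene lists (marker lists apart), 0.74, over 23 tested genes. In this list 2 were higher (Lcn2 and Lyz2), against 0.299% of all tested genes, 0 were lower and 21 did not pass. Higher in all 4 pairs were 15 of the 23, against 7.61% of all tested genes. Lcn2 encodes lipocalin 2, which starves bacteria by binding their siderophores. It was at 1023, 329.9, 446 and 2295 TPM in Tdt+ libraries, against 446, 83.0, 81.5 and 664 TPM in Tdt- libraries. Libraries 1 and 4 were the highest of both groups, which overlapped, and the log2 fold was 1.85 ± 0.29 (adjusted p = 0.0272). Saa3, an acute-phase serum amyloid A protein of macrophages, was among the most abundant transcripts. It held 34304, 17339, 21671 and 40317 TPM in Tdt+ libraries, against 19186, 5097, 5878 and 10281 TPM in Tdt- libraries. The groups overlapped through Tdt- library 1, and the log2 fold of 1.61 ± 0.42 did not pass (adjusted p = 0.148).

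The receptor genes Fpr1 and Marco did not pass either. Fpr1, which senses formylated peptides of bacteria, was at 819, 589, 763 and 484 TPM in Tdt+ libraries, against 374, 211, 232 and 166 TPM in Tdt- libraries (log2 fold 1.46 ± 0.64, adjusted p = 0.435). Marco, a scavenger receptor for bacteria, was at 1338, 920, 929 and 1556 TPM in Tdt+ libraries, against 676, 281, 297 and 490 TPM in Tdt- libraries (log2 fold 1.5 ± 0.72, adjusted p = 0.490). Neither gene had overlapping groups. Their contralateral levels spread widely, between 0.54 and 76.3 TPM for Fpr1 and between 0.52 and 138 TPM for Marco, and those libraries share the estimate of the spread. In the fit on the 8 injured-cortex libraries alone the adjusted p was 0.00748 for Saa3, 0.00162 for Fpr1 and 0.00277 for Marco.

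Of 19 tested genes of matrix and migration, 4 were higher (Cd44, Lox, Mmp14 and Tgfbi), against 0.299% of all tested genes. Of the 19, 0 were lower and 15 did not pass, with a median log2 fold of 0.44. Lox, which crosslinks collagen and elastin, was at 28.3, 18.6, 23.3 and 49.6 TPM in Tdt+ libraries, against 10.6, 7.92, 7.56 and 10.1 TPM in Tdt- libraries. The groups did not overlap, and the log2 fold was 1.54 ± 0.25 (adjusted p = 0.0282). Mmp14, a membrane-bound metalloproteinase, averaged 90.6 ± 25.1 TPM in Tdt+ libraries and 43.8 ± 8.13 TPM in Tdt- libraries, again without overlap (log2 fold 1.01, adjusted p = 0.0178). Outside the list, Bmp1, the protease that trims procollagen, was at 61.4, 42.3, 29.9 and 40.6 TPM in Tdt+ libraries, against 28.3, 18.1, 13.8 and 11 TPM in Tdt- libraries (log2 fold 1.28 ± 0.19, adjusted p = 0.0203). Fn1, the gene of fibronectin and also a monocyte marker here, averaged 132 ± 74.7 TPM in Tdt+ libraries and 88.2 ± 53.2 TPM in Tdt- libraries (log2 fold 0.61, adjusted p = 0.306).

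Cybb and Sod2, which act in oxidant handling, were higher in Tdt+ cells. Cybb, the catalytic subunit of the phagocyte NADPH oxidase, was at 553, 336, 399.6 and 612 TPM in Tdt+ libraries, against 281, 148, 144 and 227 TPM in Tdt- libraries (log2 fold 1.26 ± 0.21, adjusted p = 0.0325). Sod2, the mitochondrial enzyme that removes superoxide, was at 604, 495, 469.5 and 849.6 TPM in Tdt+ libraries, against 449, 258, 198 and 352 TPM in Tdt- libraries (log2 fold 0.97 ± 0.17, adjusted p = 0.0363). Both genes were free of overlap between the groups. They were the 2 higher genes of 23 tested in the list of itaconate, oxidant and redox genes, against 0.299% of all tested genes. In that list 0 were lower, 21 did not pass and the median was 0.04. Outside that list, Glrx and Xdh were higher as well. Glrx, which reverses glutathione adducts on proteins, averaged 212 ± 44.2 TPM in Tdt+ libraries and 116 ± 26.8 TPM in Tdt- libraries (log2 fold 0.88, adjusted p = 0.00797). Xdh, which oxidises purines to uric acid, averaged 131 ± 74.1 TPM in Tdt+ libraries and 64.9 ± 29.8 TPM in Tdt- libraries (log2 fold 0.94, adjusted p = 0.0272).

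Of 13 tested genes of iron storage and transport 3 were higher (Lcn2, Cp and Fth1), against 0.299% of all tested genes. Of the 13, 0 were lower and 10 did not pass, with a median of 0.25. Cp encodes ceruloplasmin, the ferroxidase that helps iron leave cells. It was at 319, 152, 253 and 378 TPM in Tdt+ libraries, against 132, 67.9, 65.3 and 95.0 TPM in Tdt- libraries. No values were shared between the groups, and the log2 fold was 1.58 ± 0.27 (adjusted p = 0.0355). Fth1, the ferritin heavy chain that stores iron, averaged 11716 ± 1871 TPM in Tdt+ libraries and 7769 ± 1675 TPM in Tdt- libraries (log2 fold 0.60, adjusted p = 0.0492). Fth1 did not pass on the 8 injured-cortex libraries alone (adjusted p = 0.0541) and kept its call in 4 of 21 alternatives. In complement, 1 of 15 tested genes was higher, Cfp, the gene of properdin that stabilises the alternative pathway, at 19.7 ± 3.17 TPM in Tdt+ libraries and 6.06 ± 2.97 TPM in Tdt- libraries (log2 fold 1.66, adjusted p = 0.0373). C3, the central complement component, averaged 74.5 ± 29.1 TPM in Tdt+ libraries and 24.7 ± 15.2 TPM in Tdt- libraries and did not pass (log2 fold 1.67, adjusted p = 0.0901, or 0.0139 in the fit on the 8 libraries).

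Of 30 interferon-stimulated genes 1 was higher in Tdt+ cells, against 0.299% of all tested genes. That gene was Ifit3, an antiviral RNA-response protein, at 323, 225, 318 and 90.9 TPM in Tdt+ libraries, against 185, 136, 242 and 48.6 TPM in Tdt- libraries (log2 fold 0.70 ± 0.13, adjusted p = 0.0499). Its value was higher in Tdt+ in each pair, the groups overlapped, and library 4 was the lowest of both. The other 29 did not pass, and the list median was 0.43. In all 4 pairs 18 of 30 were higher and 0 lower, against 7.61% and 10.6% of all tested genes. Rsad2, the antiviral enzyme viperin, averaged 57.1 ± 33.7 TPM in Tdt+ libraries and 27.5 ± 13.5 TPM in Tdt- libraries (log2 fold 1.01, adjusted p = 0.209). In the fit on the 8 injured-cortex libraries alone Rsad2 passed (adjusted p = 0.0297), as did Cxcl10, an interferon-induced chemokine (0.407 with all 12 libraries, 0.0166 with 8). Among 18 MHC class I genes 0 passed, with a median of 0.24. Of the 18, 9 were higher in all 4 pairs, against 7.61% of all tested genes. In limma 6 were higher at an unadjusted p under 0.05, against 4.48% of all.

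The promoters of the called genes were read for the letters of kappa-B, interferon-response and AP-1 elements, which are known from LPS-induced promoters, and of PU.1, a macrophage factor. RefSeq promoters (GRCm38.p6, 250 bases before to 50 after each start) were at hand for 29 of the 40 higher genes (37 promoters), for 17 of the 22 lower genes (21 promoters) and for 9258 of the 13397 tested genes (11825 promoters). On either strand, the core of the interferon-stimulated response element (GAAA, any 2 bases, GAAA) stood in 4 promoters of higher genes (10.8%), 1 of lower genes (4.76%) and 391 of all (3.31%), with each match in a different called gene. TGANTCA, the AP-1 letters, stood in 8 promoters of higher genes (21.6%), 2 of lower genes (9.52%) and 575 of all (4.86%); the 8 belong to 6 genes. The kappa-B letters (GGG, any 2 bases, TTTCC) were in 2 (5.41%), 2 (9.52%) and 198 (1.67%). The first 2 are overlapping promoters of 1 gene, Il1rn, and the next 2 of 1 gene, Fcgr3; by gene the shares are 3.45%, 5.88% and 2.03%. The PU.1 letters GAGGAAGT were in 2 (5.41%), 1 (4.76%) and 403 (3.41%). These matches describe the letters and are not binding sites. Stretches are shown for the 4 higher genes with the interferon-response letters and for 2 with the AP-1 letters, 5′ to 3′ on the gene's strand with the match in capitals; read on the opposite strand the interferon-response letters begin with TTTC.
Ifit3, chr19:34583343-34583412, + strand: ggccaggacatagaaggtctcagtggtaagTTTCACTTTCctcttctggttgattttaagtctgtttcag
Cybb, chrX:9469325-9469383, - strand: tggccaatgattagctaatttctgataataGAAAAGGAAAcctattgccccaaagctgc
Tgfbi, chr13:56609362-56609431, + strand: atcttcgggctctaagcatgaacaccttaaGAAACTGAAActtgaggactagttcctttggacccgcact
Tnfsf13b, chr8:10006587-10006632, + strand: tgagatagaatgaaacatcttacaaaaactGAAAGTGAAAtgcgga
Il1rn, chr2:24336689-24336755, + strand: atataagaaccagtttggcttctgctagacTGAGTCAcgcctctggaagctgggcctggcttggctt
Glrx, chr13:75839757-75839823, + strand: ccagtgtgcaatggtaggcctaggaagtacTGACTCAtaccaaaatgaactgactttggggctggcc

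The interferon-response letters began 156 bases before the start in Ifit3, 29 in Cybb, 194 in Tgfbi and 16 in Tnfsf13b; the AP-1 letters began 141 bases before the start in Il1rn. Ifit3 held a further match 122 bases before its start and Cybb held further ones at 168 and 124. Tgfbi, a secreted matrix protein induced by TGF-beta, averaged 232 ± 103 TPM in Tdt+ libraries and 124 ± 52.0 TPM in Tdt- libraries (log2 fold 0.89, adjusted p = 0.0203).

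Ltc4s and Alox5ap, which both serve leukotriene synthesis, were lower in Tdt+ cells. Ltc4s, which makes leukotriene C4, was at 147, 201, 95.7 and 118 TPM in Tdt+ libraries, against 233, 326, 211 and 210.0 TPM in Tdt- libraries. Alox5ap, the protein that presents arachidonate to 5-lipoxygenase, was at 488, 597, 489.7 and 455 TPM in Tdt+ libraries, against 709, 874, 786 and 652 TPM in Tdt- libraries. The groups did not overlap for either gene, and the log2 folds were -0.83 ± 0.12 for Ltc4s (adjusted p = 0.0182) and -0.57 ± 0.09 for Alox5ap (adjusted p = 0.0302).

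Itgb5, Gas6, Trem2 and Fcgr3, which act in phagocytosis and adhesion, were lower too. Itgb5, an integrin subunit used in the uptake of dying cells, was at 115, 130.2, 136 and 136 TPM in Tdt+ libraries, against 189.9, 209, 197 and 204 TPM in Tdt- libraries. These were among the tightest groups, with a log2 fold of -0.63 ± 0.08 (adjusted p = 0.00797). Gas6, the bridging ligand of the TAM receptors, was at 112, 184, 112 and 31.6 TPM in Tdt+ libraries, against 159, 261, 203 and 50.1 TPM in Tdt- libraries. Library 4 was the lowest of both groups, which overlapped, and the log2 fold was -0.63 ± 0.10 (adjusted p = 0.0225). Trem2, a lipid-sensing receptor, was at 474, 768, 522 and 383 TPM in Tdt+ libraries, against 775, 974, 807 and 523 TPM in Tdt- libraries (log2 fold -0.53 ± 0.10, adjusted p = 0.0492). Fcgr3, a low-affinity receptor for immunoglobulin G, averaged 1738 ± 493 TPM in Tdt+ libraries and 2534 ± 898 TPM in Tdt- libraries (log2 fold -0.53, adjusted p = 0.0213).

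Gadd45g, Tspan13, Lsp1, Rgs10 and Gngt2 were lower too. Gadd45g, a stress-response gene, was at 18.7, 46.5, 14.5 and 30.1 TPM in Tdt+ libraries, against 46.9, 69.1, 51.4 and 68.7 TPM in Tdt- libraries, without overlap (log2 fold -1.19 ± 0.19, adjusted p = 0.027). Tspan13, a tetraspanin, averaged 75.5 ± 15.0 TPM in Tdt+ libraries and 138 ± 16.6 TPM in Tdt- libraries (log2 fold -0.87, adjusted p = 0.0182). Lsp1, a leukocyte protein that binds actin filaments, averaged 38.1 ± 23.5 TPM in Tdt+ libraries and 76.0 ± 39.5 TPM in Tdt- libraries (log2 fold -1.02, adjusted p = 0.0325, or 0.0913 in the fit on the 8 libraries). Rgs10, a brake on G protein signalling, averaged 364 ± 99.8 TPM in Tdt+ libraries and 544 ± 149 TPM in Tdt- libraries (log2 fold -0.58, adjusted p = 0.0203). Gngt2, a G protein gamma subunit, averaged 124 ± 39.2 TPM in Tdt+ libraries and 203 ± 44.2 TPM in Tdt- libraries (log2 fold -0.73, adjusted p = 0.0178). The G protein genes overlapped between the groups while being lower in Tdt+ in each of the 4 pairs.

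Homeostatic microglia genes had the lowest median of the 21 gene lists, -0.36 over 30 tested genes. Of these 2 were lower (Crybb1 and Trem2), against 0.164% of all tested genes, 0 were higher and 28 did not pass. In all 4 pairs 22 of 30 were lower and 0 higher, against 10.6% and 7.61% of all tested genes. Crybb1, a crystallin gene characteristic of young microglia, was at 139, 191, 167 and 83.6 TPM in Tdt+ libraries, against 247, 275, 289.8 and 157 TPM in Tdt- libraries (log2 fold -0.76 ± 0.11, adjusted p = 0.0203). P2ry12, the purine receptor that steers microglial processes, was at 817, 1094, 723 and 588 TPM in Tdt+ libraries, against 975, 1312, 1180 and 971 TPM in Tdt- libraries (log2 fold -0.49 ± 0.09, adjusted p = 0.0528). The groups overlapped for both. Others lay nearer to 0: Tmem119 had a log2 fold of -0.29 (adjusted p = 0.122) and Cx3cr1 of 0.09 (adjusted p = 0.728). In the fit on the 8 injured-cortex libraries alone the adjusted p was 0.131 for P2ry12 and 0.173 for Tmem119. There Crybb1 (0.0166) and Trem2 (0.0415) still passed.

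The disease-associated microglia list, to which Spp1 belongs, held both directions. Of 27 tested genes 2 were higher (Cybb and Lyz2), 1 was lower (Trem2) and 24 did not pass, with a median of -0.09. Over all tested genes 0.299% were higher and 0.164% lower. Apoe, the lipid carrier of the list, averaged 3687 ± 686 TPM in Tdt+ libraries and 2893 ± 755 TPM in Tdt- libraries (log2 fold 0.37, adjusted p = 0.246). Ch25h, which hydroxylates cholesterol, was at 1299, 1555, 1464 and 679 TPM in Tdt+ libraries, against 499.7, 541, 494 and 214 TPM in Tdt- libraries. Its groups did not overlap and its adjusted p was 0.373 for a log2 fold of 1.53 ± 0.60, against 0.000243 in the fit on the 8 injured-cortex libraries alone.

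In MHC class II and costimulation 1 of 12 tested genes was lower, H2-DMa, which loads peptides onto class II, at 228 ± 39.1 TPM in Tdt+ libraries and 291 ± 39.1 TPM in Tdt- libraries (log2 fold -0.36, adjusted p = 0.0492). By the same threshold 0.164% of all tested genes were lower. H2-DMa did not pass on the 8 injured-cortex libraries alone (adjusted p = 0.14) and kept its call in 2 of 21 alternatives. The remaining lists had 0 genes that passed by limma. They were glycolysis and hypoxia (21 tested, median 0.22), lipid handling (20, 0.20), cholesterol biosynthesis (22, 0.17) and lysosome (28, 0.01). Oxidative phosphorylation (24, -0.08), microglia transcription factors with the TGF-beta pathway (23, -0.13), immediate early genes (19, -0.16) and cell cycle (16, -0.17) lay below 0. At an unadjusted p under 0.05 in limma, 4.48% of all tested genes were higher and 6.49% lower. Glycolysis had 7 higher and 1 lower, lipid handling 5 and 2, cholesterol synthesis 2 and 0, and lysosome 4 and 5. Oxidative phosphorylation had 0 higher and 1 lower, and transcription factors with the TGF-beta pathway 0 and 4. Immediate early genes had 1 and 0, and cell cycle 0 and 2. Among the 11 marker lists for cell types 0 genes passed in limma. Of the 10 microglia markers 7 were lower in Tdt+ in all 4 pairs, against 10.6% of all tested genes. In limma 6 were lower at an unadjusted p under 0.05, against 6.49% of all.

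**Figure D3:**
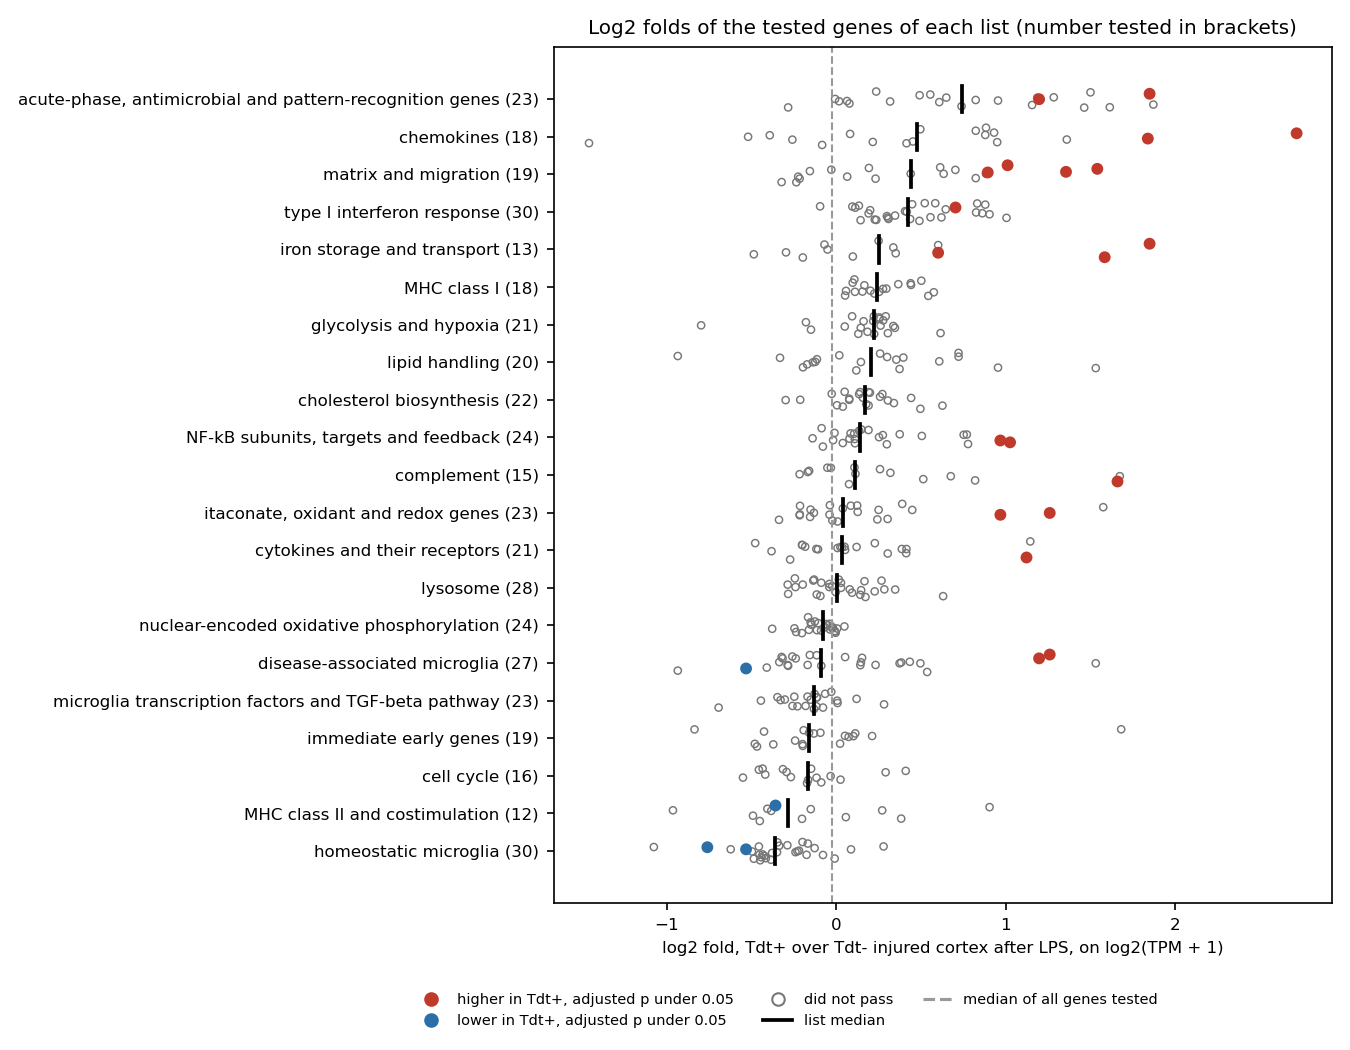
Log2 folds of Tdt+ over Tdt- injured cortex after LPS on log2(TPM + 1), with 1 point for each tested gene of 21 lists ordered by median; filled points passed (adjusted p under 0.05), black bars are list medians and the dashed line is the median of all genes tested, -0.03. Medians run from 0.74 for acute-phase, antimicrobial and pattern-recognition genes to -0.36 for homeostatic microglia genes.

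At day 28 without LPS, 0 genes passed between labelled and unlabelled microglia of the injured cortex, with 1036 of 13755 (7.53%) at an unadjusted p under 0.05. This count came from a joint fit of injured-cortex libraries with and without LPS, which share its estimate of the spread. The calls after LPS came from a different fit, which included the contralateral libraries, so the counts of calls cannot be set against each other. Whether genes would pass in a fit on the libraries without LPS alone was not tested. The libraries without LPS are from a table normalised separately, so that differences within each table were compared and not levels. Of the 40 genes higher after LPS, 22 had a day 28 fold of the same sign, with a median log2 fold of 0.08 over the 40. At day 28, 8 of the 40 had an unadjusted p under 0.05, among them Vcam1 with the opposite sign (-1.18 ± 0.24). Slc13a3 (0.71 ± 0.17) and Lyz2 (0.47 ± 0.10) were among the 8 with the same sign as after LPS. The 40 include Cxcl13, Gm49683 and Vnn3, at 0 TPM in all 8 libraries without LPS. Their fold of 0 enters the median and counts as not of the same sign. Lcn2 and Cd38 did not exceed 0.31 TPM there. The share of the same sign over all tested genes was not computed. Of the 22 lower genes, 14 had the same sign, with a median of -0.04, and 2 had an unadjusted p under 0.05.

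The difference between the conditions, tested directly, passed for 4 of 13755 genes (0.0291%), and 1044 (7.59%) had an unadjusted p under 0.05. Of the 4, Adgre1 alone was detected in both conditions. Without LPS it stood at 612, 590.0, 729 and 578 TPM in Tdt+ libraries, against 630.5, 587, 655 and 632 TPM in Tdt- libraries, so the groups overlapped. Its difference, after LPS minus without, was 0.98 ± 0.11 (adjusted p = 0.00951). The other three, Cxcl13, Saa3 and the predicted gene Gm49683, were listed at 0 TPM in all 8 libraries without LPS. They entered through the LPS table, had no day 28 fold to compare, and their zeros lowered the estimated spread, so their p-values are no test of a difference between conditions. Gm49683 was listed after LPS at 16.6, 15.3, 8.48 and 16.5 TPM in Tdt+ libraries, at 0 in the 4 Tdt- libraries, and at 22.1, 0, 6.69 and 7.67 TPM in the contralateral libraries. The count was 2, 0 or 0 without Tdt+ library 2, 3 or 4 of the LPS table, and 7, 2 or 0 without its Tdt- library 1, 3 or 4. It was 1 without the block. Adgre1 alone passed among genes with at least 1 TPM in 4 libraries of each table, a filter chosen after seeing the data.

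For Ccl5, Il1rn, Vcam1, Trem2 and Apoe the difference between the conditions did not pass. Ccl5 had a log2 fold of 1.84 after LPS and of 1.92 ± 0.54 without it, on levels of 3.01 to 33.4 TPM in Tdt+ libraries and 0 to 8.28 TPM in Tdt- libraries; its difference was -0.08 (adjusted p = 0.991). Il1rn had 1.12 after LPS and 1.03 ± 0.37 without, where no library exceeded 4.82 TPM. Vcam1 had 0.97 after LPS and -1.18 ± 0.24 without it, where Tdt+ libraries held 2.20, 2.24, 0.43 and 3.34 TPM, against 4.41, 6.74, 5.05 and 5.62 TPM in Tdt- libraries. The difference of Vcam1, 2.14 ± 0.33, did not pass (adjusted p = 0.0562). Trem2, lower after LPS, was at 1771 to 2051 TPM in Tdt+ libraries and 1721 to 2049 TPM in Tdt- libraries without it (log2 fold 0.07; difference -0.61, adjusted p = 0.11). Apoe had 0.37 after LPS and 0.80 ± 0.13 without (difference -0.42, adjusted p = 0.633).

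**Figure D4:**
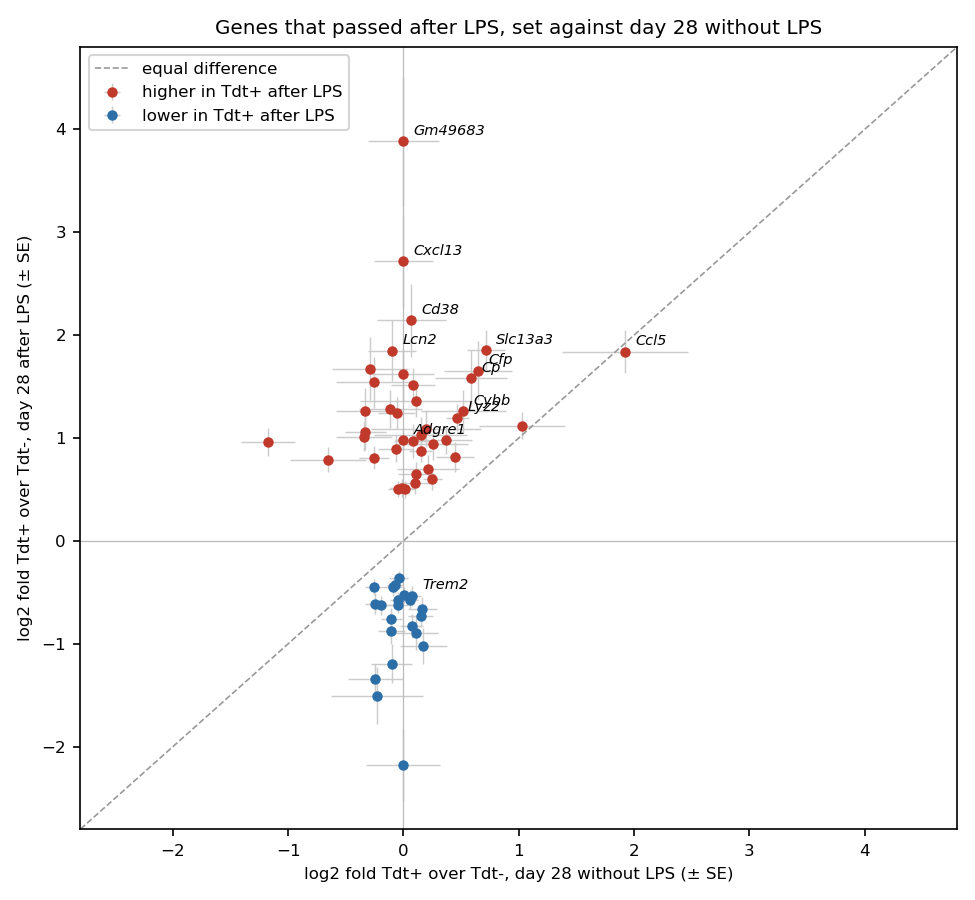
Log2 fold of Tdt+ over Tdt- injured cortex at day 28 after LPS (y axis) against the same fold at day 28 without LPS (x axis), both on log2(TPM + 1) with SE bars, for the 62 genes that passed after LPS; the dashed line marks equal folds. The median x value is 0.08 for the higher and -0.04 for the lower genes, while Ccl5 lies at 1.92 on the x and 1.84 on the y axis. Genes not detected without LPS (Cxcl13, Gm49683 and Vnn3) lie at 0 on the x axis.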

How the data were processed

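Microglia of 8 injured-cortex libraries after LPS were compared. Reads were trimmed, aligned and quantified by the authors with cutadapt 2.10, STAR 2.7.5c and RSEM 1.3.3 on GRCm38, per the submitters' processing notes; the deposited tables give TPM per gene, with no depth. RSEM shares reads among near-identical genes, so genes with close copies (Saa3, Fcgr3, the H2 genes, Gm genes) are less certain. Genes with at least 1 TPM in 4 of the 12 LPS libraries (13397 of 55413) were tested on log2(TPM + 1). The model had group and replicate number as terms and was fitted with limma 3.58.1 (R 4.3.3), using a trend of variance on level, 6 residual degrees of freedom, two-sided p-values and Benjamini-Hochberg adjustment at 0.05. The day 28 table entered through an interaction contrast over 16 libraries, the replicate number within each table as block; its 8 contralateral columns were not used.

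Replicate numbers come from the labels, which do not say what they share. The numbers were taken as pairs because the comparison was set with them as block. Residuals of Tdt+ and Tdt- libraries of the same number correlated at 0.12, 0.22, 0.24 and 0.52 for numbers 1 to 4. These were not set against correlations between unlike numbers, so they cannot show that the numbers are pairs. Named genes were Spp1, for each list the 2 largest rises and falls that passed or else the gene with the smallest p, and the 15 largest passing rises and falls with a mean of at least 10 TPM. Further genes, such as Saa3, Fpr1, Marco, Acod1, Ch25h, C3, Il1b, Tnf, Ccl3, Rsad2, Apoe, Tmem119 and Cx3cr1, were named after their values were seen. The comparison and the 21 gene lists and 11 marker lists were chosen with earlier results of these data known. Methods were tested on simulated data. Alternatives covered the block, pseudocount, filter, scaling, trend, libraries used and leaving out libraries.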

Additional observations from a re-analysis of the deposited data

Results flagged for a closer look

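Within groups of 4 libraries, 20 of 186 screened had 1 library set apart from the other 3 by a gap beyond Dixon's 95% limit; chance gives about 1 in 20 groups, and 7 of the 20 were libraries numbered 4. Library 1 was the high one for Lyz2 in Tdt+ (2035 TPM) and in Tdt- (1172 TPM), and in Tdt- for Slc13a3 (249 TPM), Cd72 (672 TPM), Xdh (109.6 TPM), Slc25a10 (56.0 TPM) and Irak3 (27.9 TPM). Library 4 was the high one for Spp1 in Tdt+ (665 TPM) and Tdt- (373 TPM), for the mitochondrial share in Tdt+ (6.20%) and Tdt- (6.88%), and in Tdt- for Fcgr3 (3869 TPM) and the neutrophil marker Cxcr2 (11.2 TPM). It was the low one for Ch25h in Tdt- (214 TPM). Library 2 was high for the neuronal marker Snap25 in Tdt+ (9.68 TPM) and Tdt- (8.97 TPM) and for Tspan7 in Tdt+ (210.2 TPM), and low for Tyms in Tdt- (12.5 TPM). Library 3 of Tdt+ was low for Gm49683 (8.48 TPM) and for the myelin gene Mbp (6.95 TPM).

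The log2 fold of Tdt+ over Tdt- after LPS exceeded that at day 28 without LPS, by the tested difference, for Adgre1 (0.98). Cxcl13 (2.72), Saa3 (1.61) and Gm49683 (3.88) also came out of that test but were listed at 0 in all libraries without LPS. For them the value is the LPS difference alone, depends on the pseudocount, and does not test the conditions against each other.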

How the results depend on the processing

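With no replicate block 0 genes passed (0 higher, 0 lower), with no filter on low values 8 (6 and 2), and with no intensity trend 3 (2 and 1); the cause was not tested beyond the 25202 genes tested without the filter. On the 8 injured-cortex libraries alone 80 passed, 64 higher and 16 lower, 49 of them among the 62. Median-ratio scaling gave 34 higher and 8 lower. Leaving out libraries gave 0 to 39 calls, 0 to 20 higher and 0 to 22 lower (without a whole number, 0 to 17 and 0 to 3). Pseudocounts of 0.5 and 5, a minimum of 10 TPM and quantile normalization gave 49, 76, 83 and 53. Every one of the 62 with a value kept its sign in each of these settings; 2810025M15Rik, Adgre1, Igfbp4 and Slc13a3 passed in 18 of 21, the median gene in 7, and Gm8850 in 1.

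The difference from day 28 without LPS passed for 1 gene without the replicate block, 13 with a pseudocount of 5, 9 at a minimum of 10 TPM, 1 with 1 TPM required in each table, and 0 to 7 with a library left out. For Adgre1 the difference kept its sign, with adjusted p between 0.00449 and 0.0917 apart from 0.947 without the block.

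Mbp, Alas2 and Il1b, which had not passed, changed sign when libraries were left out. The log2 fold of Mbp ranged between -0.00832 and 0.51, the log2 fold of Alas2 between -0.0589 and 0.60, and the log2 fold of Il1b between -0.38 and 0.32. Il1b was below 0 without Tdt+ library 2 (-0.27) or 3 (-0.14), without Tdt- library 4 (-0.38), and without number 2 (-0.0744) or 4 (-0.0577) in every group.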
